A study of Mus musculus with 4 samples.

Results

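Col10a1, Spp1, Ibsp, Panx3, Mef2c and Ank are 6 genes of cartilage hypertrophy and matrix mineralization, chosen by symbol from the 32288 gene features of 4 single-cell RNA-seq libraries of E14.5 mouse hindlimbs. All embryos carried Gli1CreER/+, R26LSL-tdT/+ and TigreTRE-p21/+, and all received doxycycline from E12.5 (1 mg/ml in sucrose-containing drinking water, and food) and oral tamoxifen at E13.5 (120 µg/g), so Gli1-lineage cells were labelled with tdTomato. Pan-Cart-p21MOE embryos also carried Col2a1-rtTA, which drives the p21 transgene in Col2a1-expressing cartilage cells under doxycycline, and control embryos lacked it. Flow sorting gave a tdT+ and a tdT- fraction, each measured in collection 1 (male Pan-Cart-p21MOE with female control cells in 1 library) and in collection 2 (female Pan-Cart-p21MOE with male control cells). Cells of a library were returned to their condition by sex, so within a collection condition and sex cannot be told apart, while over both collections sex is balanced. Both fractions of a pool came from the same embryos, so the 8 combinations of library and condition stand for 2 embryo pools per condition, and the study's methods list 1 female Pan-Cart-p21MOE embryo. Below, p21 stands for Pan-Cart-p21MOE cells, and a pseudobulk is the sum of unique molecular identifiers (UMIs, counted transcript molecules) over the cells of 1 library and 1 condition.

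When chondrocytes of the growth plate stop dividing they enlarge, and this hypertrophic layer changes its matrix, calcifies and is replaced by bone laid down by osteoblasts. The transcription factors Runx2 and Mef2c, the latter held in check by histone deacetylases, drive this switch. The members fall into 4 roles. Col10a1 encodes type X collagen, the defining matrix collagen of hypertrophic cartilage. Spp1 (osteopontin) and Ibsp (bone sialoprotein) encode acidic phosphoproteins of mineralized matrix, which hypertrophic chondrocytes share with bone-forming cells. Panx3 encodes a pannexin channel of prehypertrophic cartilage and bone, and Ank a membrane protein needed for the export of pyrophosphate, an inhibitor of mineral formation.

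By the GENCODE M21 annotation of GRCm38, Col10a1 lies at chr10:34389981-34397085, Ibsp at chr5:104299171-104311469, Spp1 at chr5:104435118-104441050, Mef2c at chr13:83504034-83667080 and Ank at chr15:27466677-27594909, all on the plus strand. Panx3 lies at chr9:37659902-37669235 on the minus strand. Ibsp and Spp1 are neighbours in the same orientation, with 123649 bases between the end of Ibsp and the start of Spp1. RefSeq promoter windows (GRCm38.p6, 250 bases before to 50 after the start site) were listed for 5 of the 6 members. Those of the matrix genes are shown because these 3 genes had the largest fold changes between the fractions in chondrocytes. Capitals mark the TATA box letters TATAAA (or TTTATA on the other strand), the RUNX core letters TGTGGT (or ACCACA on the other strand) and the CCAAT box (or ATTGG on the other strand).
Col10a1 (chr10:34389731-34390030, plus strand): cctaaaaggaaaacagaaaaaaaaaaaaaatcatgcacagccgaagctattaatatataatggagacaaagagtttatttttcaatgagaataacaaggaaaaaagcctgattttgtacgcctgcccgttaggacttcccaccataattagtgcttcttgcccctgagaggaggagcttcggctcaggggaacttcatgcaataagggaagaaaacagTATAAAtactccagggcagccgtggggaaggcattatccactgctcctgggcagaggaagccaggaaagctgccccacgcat
Spp1 (chr5:104434861-104435160, plus strand): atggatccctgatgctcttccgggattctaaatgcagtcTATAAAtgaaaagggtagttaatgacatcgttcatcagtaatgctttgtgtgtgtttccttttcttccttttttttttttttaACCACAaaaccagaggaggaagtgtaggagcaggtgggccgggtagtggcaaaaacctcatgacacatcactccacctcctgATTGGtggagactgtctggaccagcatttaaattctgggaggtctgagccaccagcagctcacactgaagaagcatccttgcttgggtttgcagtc
Ibsp (chr5:104299037-104299336, plus strand): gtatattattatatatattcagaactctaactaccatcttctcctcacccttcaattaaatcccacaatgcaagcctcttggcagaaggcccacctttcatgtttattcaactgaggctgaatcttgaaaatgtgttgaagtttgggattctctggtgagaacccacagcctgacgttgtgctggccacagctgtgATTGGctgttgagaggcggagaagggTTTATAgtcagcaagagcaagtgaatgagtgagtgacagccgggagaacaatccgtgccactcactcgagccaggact
Counted from the start site, the Col10a1 window held TATAAA at -32. The Spp1 window held TATAAA at -211, ACCACA at -128 and ATTGG at -46, and the Ibsp window held TTTATA at -28 and ATTGG at -54. Of the 32851 windows listed for 27025 genes, 13.6% held TATAAA on either strand, 16.8% TGTGGT and 37.4% CCAAT. These matches describe the letters only, and no binding was measured.

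The 4 libraries held 2541 to 6455 barcodes and 11945062 to 39435830 UMIs. After filtering and assignment by sex, 2855 cells were kept (1443 tdT+ and 1412 tdT-), with median depths of 17333.5 to 27554.5 UMIs per library, and at most 1 kept barcode was shared by any pair of libraries. In chondrocytes, WPRE, an RNA-stabilising element of the transgene constructs, was higher in p21 than in control cells of every library (1114 against 101 and 1251 against 71.8 counts per 1000000 UMIs in tdT- cells). Cdkn1a, the mouse p21 gene, stood at 60.9 to 68.8 in p21 and 31.2 to 99.1 in control chondrocytes. Its ranges thus overlap, and it was higher in p21 cells in 3 of 4 libraries. By the paper's account, reads of the p21 and tdTomato transgenes fall mostly on WPRE, so Cdkn1a is a poor measure of the induced p21. The tdTomato feature stood at 17.5 to 25.6 of the same unit in tdT+ and 0.375 to 2.15 in tdT- chondrocytes. Clustering, from which the 6 members were left out, gave 21 clusters. Cluster 13 (85 cells, median 14753 UMIs) was hypertrophic-like by Ihh, Pth1r, Foxa3, Bmp6 and Scin. These were the 5 of its 10 listed markers that passed the naming rule, while the collagenase gene Mmp13 was at 0. The cluster also passed 5 of the 6 markers of proliferative chondrocytes. Ihh is a gene of prehypertrophic cells, so the name does not set hypertrophic apart from prehypertrophic cells. Cluster 17 (70 cells, median 17879 UMIs) was osteoprogenitor-like by Runx2, Ifitm5, Alpl and others, 9 of its 12 listed markers, with Dmp1 at 0. Clusters 2 and 4 were resting-like and clusters 6 and 16 proliferative-like chondrocytes, and with cluster 13 they make up the chondrocytes below. Levels are given as CPM, the UMIs of a gene per 1000000 UMIs of the cells summed, and levels called TMM-scaled are corrected by edgeR's trimmed mean of M-values. Genes were counted from 3′ ends, so levels are compared within a gene and not between genes.

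Col10a1 marked the hypertrophic-like cells. It stood at 654 CPM there (1371 UMIs), against 0.657 in osteoprogenitor-like cells, where a single UMI was found in 70 cells. Of the hypertrophic-like cells, 80% held a Col10a1 UMI, or 62.7% at an equal depth of 5000 UMIs (68 of the 85 cells were deep enough). In osteoprogenitor-like cells these shares were 1.43% and 0.937% (56 of 70 cells deep enough). Tenocyte-like cells (130 cells, median 25908 UMIs), which should lack type X collagen, gave 8.46%, or 2.11% at equal depth. The osteoprogenitor-like share was no higher than theirs. Of the tenocyte-like cells 77.7% came from the tdT- library of collection 2, while 82.9% of osteoprogenitor-like cells were tdT+. Barcodes under 1000 UMIs held Col10a1 at 89.0 CPM in that library and at 2.68 and 2.31 in the tdT+ ones. Tenocyte-like shares, here and for the members below, are thus no matched background. Over pseudobulks with at least 5 hypertrophic-like cells, Col10a1 stood at 467 in tdT- control cells of collection 1 (12 cells), 1719 in tdT- control cells of collection 2 (18 cells), 448 in tdT- p21 cells of collection 2 (39 cells) and 23.3 in tdT+ p21 cells of collection 2 (9 cells). The last value was the lowest by far and rested on only 5 UMIs in 4 of the 9 cells. It lay above all values of osteoprogenitor-like cells (0 to 4.05), other chondrocytes (0 to 8.76) and other cells (0 to 21.9). With so few UMIs it cannot be set apart from the highest of these.

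Among the other clusters, Col10a1 was highest in the 15 endothelial-like cells (220 CPM, 100 UMIs in 7 cells), 14 of which came from the tdT- library of collection 2. The same cells held Panx3 at 117 and Mef2c, which is also used in endothelium, at 594 CPM. Of these UMIs, 51 came from p21 and 49 from control cells, and whether the cells were doublets was not tested beyond the general filter. Barcodes under 1000 UMIs, which hold mostly free RNA, gave Col10a1 at 64.2 and 89.0 CPM in the tdT- libraries and 2.68 and 2.31 in the tdT+ libraries.

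The bone matrix genes Spp1 and Ibsp were shared by both cell types. Spp1 stood at 590 CPM in hypertrophic-like and 208 in osteoprogenitor-like cells, against 8.79 in proliferative-like and 3.17 in resting-like chondrocytes. More osteoprogenitor-like than hypertrophic-like cells held an Spp1 UMI (54.3% against 27.1%, or 35.4% against 19.6% at equal depth), while tenocyte-like cells gave 16.2%, or 4.59% at equal depth. Per pseudobulk, Spp1 in hypertrophic-like cells was 2183 and 1389 in the tdT- control cells of collections 1 and 2, 191 in tdT- p21 cells and 4.67 in tdT+ p21 cells of collection 2. In osteoprogenitor-like cells it was 357 in tdT+ p21 cells of collection 1, and 113, 157 and 121 in tdT+ control, tdT+ p21 and tdT- p21 cells of collection 2. The osteoprogenitor-like values thus lie close together inside the range of the hypertrophic-like ones, and no order between the cell types holds for Spp1. The low end of the hypertrophic-like range, 4.67, was 1 UMI in 9 cells and is imprecise.

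Ibsp stood at 1178 CPM in osteoprogenitor-like and 284 in hypertrophic-like cells, and at most 12.1 in any other cluster. The shares of cells with an Ibsp UMI were alike, 24.3% in osteoprogenitor-like and 29.4% in hypertrophic-like cells (14.8% and 18.0% at equal depth), with 9.23% and 2.62% in tenocyte-like cells. Osteoprogenitor-like pseudobulks gave 6.01 for tdT+ p21 cells of collection 1 and 92.1, 2842 and 20.2 for tdT+ control, tdT+ p21 and tdT- p21 cells of collection 2. Hypertrophic-like pseudobulks gave 6.31 and 116 for tdT- control cells of collections 1 and 2, 578 for tdT- p21 cells and 4.67 for tdT+ p21 cells of collection 2. The values overlap, and 1 osteoprogenitor-like value, 2842, lies above all hypertrophic-like values. The lowest values rested on few counts, with 1 UMI each for 4.67 and 6.31 and 2 UMIs for 6.01.

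Panx3 was the member whose order was clearest after Col10a1. Its level was 353 CPM in hypertrophic-like, 110 in osteoprogenitor-like, 64.3 in proliferative-like and 5.66 in resting-like cells. The 4 hypertrophic-like pseudobulks (168 to 432) all lay above the 4 osteoprogenitor-like ones (54.1 to 145), which overlapped with the other chondrocytes (2.84 to 76.0). Most of these hypertrophic-like pseudobulks were tdT- and most of the osteoprogenitor-like ones tdT+, so cell type and fraction are partly mixed. In tdT- p21 cells of collection 2 Panx3 was 301 in hypertrophic-like against 134 in osteoprogenitor-like cells. In tdT+ p21 cells of collection 2 it was 168 against 145, nearly alike. There 1 of the 9 hypertrophic-like cells held 20 of the 36 UMIs. A Panx3 UMI was found in 74.1% of hypertrophic-like and 55.7% of osteoprogenitor-like cells (67.4% and 34.1% at equal depth), against 6.15% and 1.5% in tenocyte-like cells.

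Mef2c was found in nearly all cells of both types. It stood at 1125 CPM in osteoprogenitor-like and 832 in hypertrophic-like cells, and a UMI was found in 100% and 95.3% of them. The pseudobulk values of the osteoprogenitor-like cells (754 to 1491) overlapped with those of the hypertrophic-like cells (621 to 828), and all 8 lay above every value of the other chondrocytes (117 to 276) and of the other cells (120 to 170). Ank showed no order between the cell types. It stood at 35.3 CPM in hypertrophic-like, 41.4 in osteoprogenitor-like, 20.0 in proliferative-like and 37.0 in resting-like cells, and its pseudobulk values overlapped in all of them (14 to 202 in hypertrophic-like and 20.2 to 57.1 in osteoprogenitor-like cells). The highest Ank value, 202, came from the same 12 tdT- control cells of collection 1 that gave the highest Spp1 value.

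**Figure D1:**
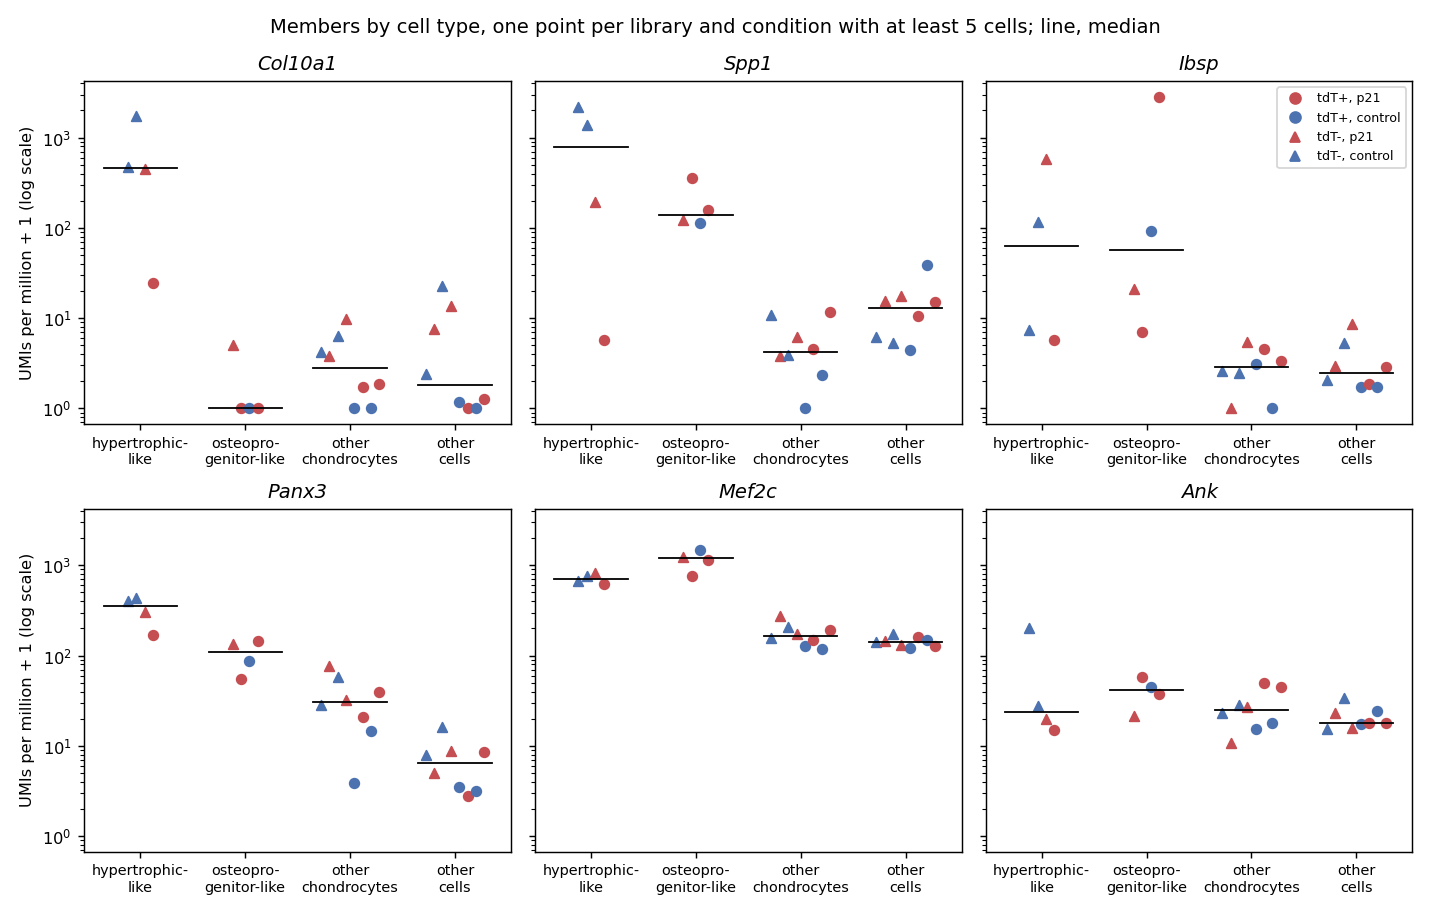
Level of each member (CPM + 1, log scale) in hypertrophic-like cells, osteoprogenitor-like cells, other chondrocytes and all other cells. Each point is 1 pseudobulk with at least 5 cells (circles tdT+, triangles tdT-, red p21, blue control) and each line is the median. Col10a1 and Panx3 points of hypertrophic-like cells lie above all osteoprogenitor-like points, whereas the points of Spp1, Ibsp, Mef2c and Ank overlap between these 2 types.

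Within a cell type, the matrix genes were carried by few cells. The 10 cells with most UMIs of the gene held 70.8% of the Col10a1, 89.7% of the Spp1 and 96.1% of the Ibsp UMIs of the 85 hypertrophic-like cells, and 99.3% of the Ibsp UMIs of the 70 osteoprogenitor-like cells. For Mef2c and Panx3 the 10 highest hypertrophic-like cells held 52.9% and 50.7%. One tdT- control cell of collection 2 (30566 UMIs) held 605 Col10a1, 473 Spp1, 46 Ibsp, 13 Panx3, 7 Mef2c and 1 Ank UMIs, and thus 71.7% of the Col10a1 UMIs of its pseudobulk. Without it the Col10a1 level of hypertrophic-like cells was 371 and that of Spp1 370 CPM. One tdT+ p21 osteoprogenitor-like cell of collection 2 (52130 UMIs) held 1364 of the 1486 Ibsp UMIs of its pseudobulk (91.8%), with 8 Spp1 UMIs and no Col10a1 UMI.

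Without this cell the Ibsp level of osteoprogenitor-like cells was 291 CPM, beside 284 in hypertrophic-like cells (207 without the highest hypertrophic-like cell), so the higher pooled level of Ibsp in osteoprogenitor-like cells came from this 1 cell. In the tdT+ control cells of collection 1, 1 of the 3 osteoprogenitor-like cells held all 272 Ibsp UMIs. Col10a1 was found in 68 of all 85 hypertrophic-like cells, in 23 of the 25 with Ibsp and in 20 of the 23 with Spp1. Spp1 and Ibsp were found together in 9 cells, Spp1 without Ibsp in 14 and Ibsp without Spp1 in 16. Panx3 was found in 51 of the 68 cells with Col10a1, about its share in all 85 (74.1%).

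**Figure D2:**
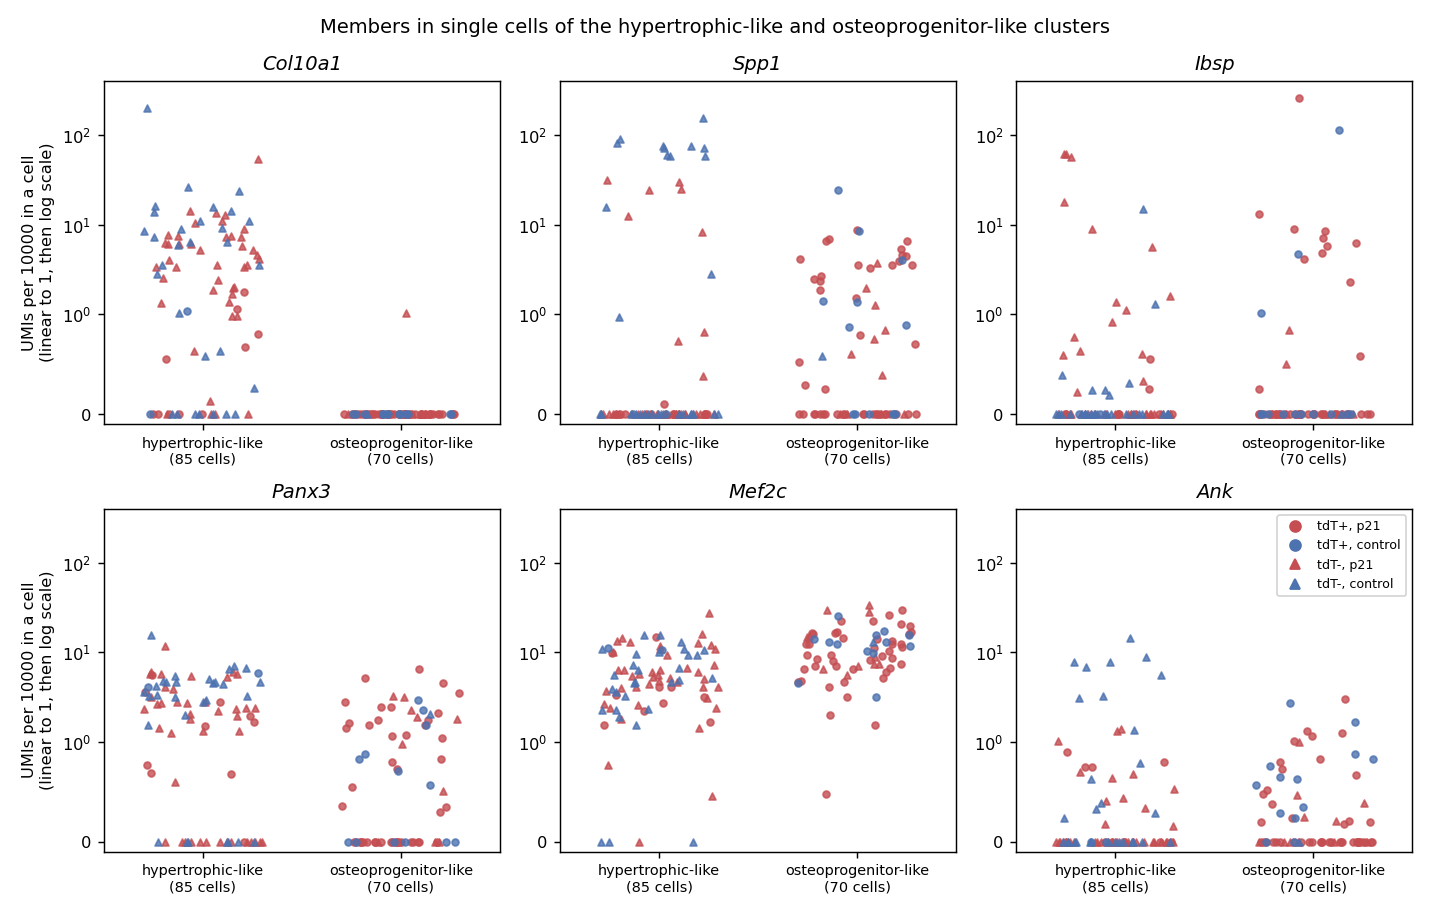
UMIs of each member per 10000 UMIs in each of the 85 hypertrophic-like and 70 osteoprogenitor-like cells (linear up to 1, then log scale, horizontal position within a type is random). Circles are tdT+, triangles tdT-, red p21 and blue control cells. The highest Col10a1 cell reaches 198 and the highest Ibsp cell 262, while Mef2c is spread over nearly all cells and the cells highest in Spp1 are tdT- control cells.

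The fractions differed in how many of these cells they held. Of the 85 hypertrophic-like cells 73 were tdT-, and of the 70 osteoprogenitor-like cells 58 were tdT+. Hypertrophic-like cells made up 12.1%, 9.60%, 13.2% and 19.8% of the chondrocytes in the tdT- p21 and control pseudobulks of collections 1 and 2. In the tdT+ pseudobulks they made up 2.33%, 0% (0 of 50 cells, which allows a share of up to 6%), 5.84% and 3.51%. Every tdT- share lay above every tdT+ share. Osteoprogenitor-like cells were 4.02% of all tdT+ cells (95% exact binomial interval 3.07 to 5.17) and 0.850% of all tdT- cells (0.440 to 1.48), intervals that cover counting error only. No test was run on these shares, since the clusters were drawn on the same cells.

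**Figure D3:**
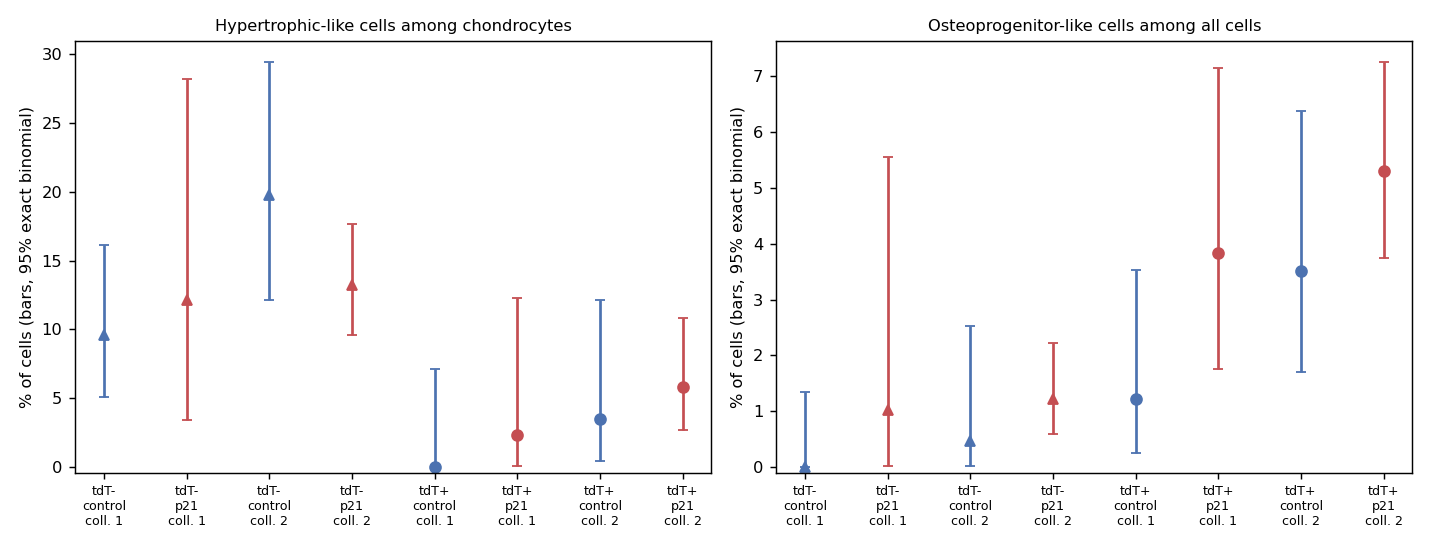
Share of hypertrophic-like cells among chondrocytes (left) and of osteoprogenitor-like cells among all cells (right), in percent, for the 8 pseudobulks. Bars are exact binomial 95% intervals, circles tdT+, triangles tdT-, red p21 and blue control. The tdT- shares of hypertrophic-like cells (9.60% to 19.8%) lie above the tdT+ shares (0% to 5.84%), and the tdT+ shares of osteoprogenitor-like cells (1.22% to 5.30%) reach higher than the tdT- shares (0% to 1.22%).

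Sums over a fraction therefore mix different cells for different members. In tdT- cells 79.8% of the Col10a1, 77.0% of the Spp1 and 78.3% of the Ibsp UMIs came from hypertrophic-like cells, which were 5.17% of the cells. In tdT+ cells 96.9% of the Ibsp UMIs came from osteoprogenitor-like cells, and of the Spp1 UMIs 36.4% came from osteoprogenitor-like and 0.128% from hypertrophic-like cells. Of Mef2c and Ank, at most 18.9% came from either cell type in either fraction. In such a sum, fewer cells of a type and less RNA per cell cannot be told apart.

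Col10a1 was lower in tdT+ than in tdT- cells. Over all cells, TMM-scaled Col10a1 was 1.92, 0.139, 0.732 and 1.19 CPM in the tdT+ p21 and control pseudobulks of collections 1 and 2. The tdT- values in the same order were 12.6, 16.3, 30.4 and 139.7. The means were 1.00 ± 0.75 and 49.8 ± 60.4 CPM (SD, n = 4 pseudobulks each). The groups did not overlap, and tdT+ was lower in each of the 4 embryo pools. The fold change of tdT+ over tdT- was -5.48 on the log2 scale (SE 0.808, adjusted p = 0.0110, quasi-likelihood F-test of edgeR, Benjamini-Hochberg adjusted over 14977 genes, of which 2.61% passed at 0.05, 1.34% as higher and 1.27% as lower). Within collection 1 the fold change was -3.87 (edgeR's adjusted p = 0.0335) and within collection 2 it was -6.16 (adjusted p = 0.0102). Each fit within a collection held 1 p21 and 1 control pool and left 1 residual degree of freedom, so its p-value is weak support. Over both collections the fold change was -4.81 (edgeR's adjusted p = 0.00386) without 3 cells. Each was the highest of its cell type for a matrix gene and held at least 100 UMIs of it. They were the cells with 605 Col10a1, 1364 Ibsp and 168 Ibsp UMIs. The Ibsp cells removed were p21 cells, and the control cell with 272 Ibsp UMIs was kept. Without the hypertrophic-like cells the Col10a1 fold change was -5.25 (edgeR's adjusted p = 0.00767).

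The free RNA in barcodes under 1000 UMIs, given above, differed between the fractions in the same direction, and its part in the Col10a1 UMIs of other cells was not tested. Marker lists of other cells also differed between the fractions. The 6 immune markers summed to 8.72 to 87.8 CPM in tdT- and 2.42 to 4.91 in tdT+ pseudobulks, and the 6 erythroid markers to 11.8 to 36.6 and 3.74 to 6.18. The 5 endothelial markers summed to 60.2 to 180 in tdT- and 47.5 to 97.3 in tdT+, and the 5 osteoclast markers to 29.0 to 51.4 and 53.0 to 72.8. In chondrocytes, the immune markers summed to 5.63 to 13.2 in tdT- and 2.84 to 10.6 in tdT+, the erythroid ones to 11.9 to 21.8 and 3.28 to 7.87, the endothelial ones to 59.7 to 176 and 106 to 232, and the osteoclast ones to at most 22.5 and 23.8. In hypertrophic-like cells the 6 immune markers summed to 9 UMIs (4.29 CPM), with Ptprc, Cd74 and Tyrobp at 0. The endothelial markers summed to 169 CPM there, against 156 in other chondrocytes and 102 over all cells. The 5 pericyte markers summed to 220, 203 and 131 CPM in the same order. The part of these cells in the members' differences was not tested. With limma-voom the Col10a1 fold change of -5.44 had an adjusted p of 0.0832, and without the tdT+ control cells of collection 1 it was -4.98 (edgeR's adjusted p = 0.0504).

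The other 5 members did not pass between the fractions over all cells in edgeR's test as designed. With no filter on low counts Spp1 (adjusted p = 3.47e-21), Ibsp (2.00e-22) and Panx3 (3.24e-21) passed, with smaller SEs, and Spp1 also passed with the cells lacking a sex call added (-1.66, adjusted p = 0.0391). Spp1 was 22.9, 9.71, 17.7 and 32.2 CPM in tdT+ p21 and control pseudobulks of collections 1 and 2, and 25.7, 73.2, 21.9 and 105.6 in the tdT- ones. The ranges overlap, and the tdT- control values stood apart from the tdT- p21 values. The fold change was -1.21 on the log2 scale (SE 0.412, adjusted p = 0.146), and it was 1.18 (adjusted p = 0.139) without the hypertrophic-like cells. Ibsp was 1.92, 38.7, 92.6 and 4.11 in tdT+ and 4.36, 1.52, 31.7 and 11.4 in tdT- pseudobulks in the same order, a fold change of 1.32 (SE 0.918, adjusted p = 0.475). Without the hypertrophic-like and osteoprogenitor-like cells the fold change of Ibsp was -1.48 (adjusted p = 0.115).

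Panx3 was 15.7, 3.61, 22.9 and 19.0 in tdT+ and 27.9, 28.8, 30.4 and 64.4 in tdT- pseudobulks. All 4 tdT- values lay above the tdT+ values, and the fold change of -1.29 (SE 0.433) had an adjusted p of 0.141. Mef2c (126 to 214 in tdT+ and 170 to 235 in tdT-) differed by -0.14 on the log2 scale (SE 0.154, adjusted p = 0.687). Ank (16.5 to 25.2 and 18.3 to 30.2) differed by -0.06 (SE 0.181, adjusted p = 0.915).

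Among chondrocytes alone, none of the 6 members passed at an adjusted p of 0.05, where 0.0169% of 11838 genes did by edgeR's test and 4.98% had an unadjusted p under 0.05. Col10a1 was 9.67, 0, 1.87 and 5.65 CPM in the tdT+ and 25.3, 31.1, 58.4 and 272.7 in the tdT- p21 and control pseudobulks of collections 1 and 2. Spp1 was 3.22, 0, 10.6 and 1.25 in tdT+ and 49.3, 140.9, 26.2 and 219.0 in tdT- chondrocytes. For both genes every tdT- value lay above every tdT+ value. The fold changes were -4.46 for Col10a1 (SE 0.808, adjusted p = 0.298) and -3.75 for Spp1 (SE 0.671, adjusted p = 0.298). Ibsp was 5.16, 2.14, 2.49 and 0 in tdT+ and 9.32, 1.90, 69.2 and 19.4 in tdT- chondrocytes, with overlap, and its fold change was -3.75 (SE 0.779, adjusted p = 0.499).

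With the embryo pool as a block, which pairs tdT+ and tdT- cells of the same embryos, Col10a1 was lower in tdT+ chondrocytes by edgeR's test (-4.48, SE 0.468, adjusted p = 0.00792). Spp1 and Ibsp both had an adjusted p of 0.131 in that fit. Within collection 1 the Col10a1 fold change in chondrocytes was -2.66 (edgeR's adjusted p = 0.454). Within collection 2 it was -5.29 (adjusted p = 0.000869), where Ibsp also passed (-4.95, adjusted p = 0.0257). These fits, too, left 1 residual degree of freedom each. Leaving out the tdT- control cells of collection 1 gave -4.84 for Col10a1 (adjusted p = 0.0195), and leaving out the tdT+ p21 cells of collection 2 gave -6.25 for Spp1 (adjusted p = 0.00578). With the cells lacking a sex call added, which could be done for the fractions but not for the conditions, Col10a1 (-4.67, adjusted p = 0.0446) and Spp1 (-4.35, adjusted p = 0.0152) were lower in tdT+ chondrocytes, as 2 libraries against 2. Without the hypertrophic-like cells, Spp1 differed by -0.33 between tdT+ and tdT- chondrocytes (adjusted p = 1.00). Panx3 (-0.80, SE 0.479), Mef2c (-0.33, SE 0.181) and Ank (0.18, SE 0.368) had adjusted p-values of 0.948, 0.948 and 1.00 between the chondrocytes of the fractions.

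**Figure D4:**
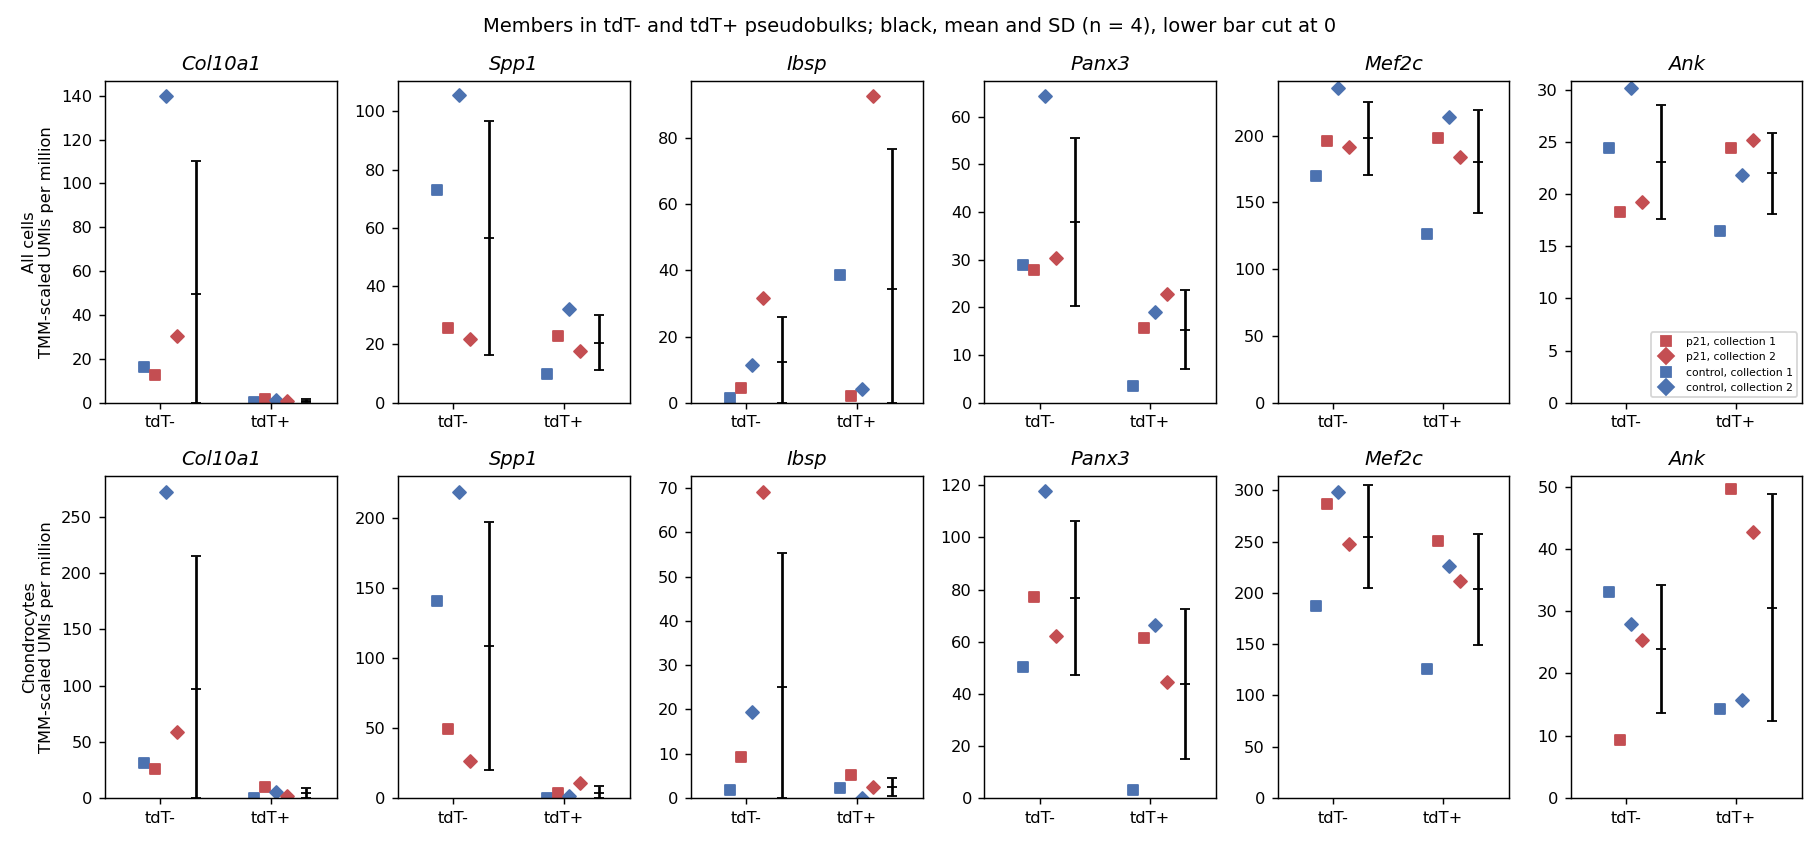
Level of each member (TMM-scaled CPM) in the tdT- and tdT+ pseudobulks of all cells (top) and of chondrocytes (bottom). Red is p21, blue control, squares collection 1 and diamonds collection 2, and black bars give mean and SD (n = 4 pseudobulks, lower bar ended at 0). For Col10a1 all tdT- points lie above all tdT+ points in both rows, and the tdT- control point of collection 2 is the highest (139.7 over all cells and 272.7 in chondrocytes).

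The comparison of p21 with control cells asks how induced cell-cycle arrest in cartilage changed gene expression. None of the 6 members passed in chondrocytes, where edgeR's test called 0.135% of 11838 genes and 10.8% had an unadjusted p under 0.05, nor over all cells, where it called 0.02% of 14977 genes and 6.53% had an unadjusted p under 0.05. From the values given above, Ibsp was higher in p21 than in control chondrocytes in all 4 libraries, with a fold change of 2.05 on the log2 scale (SE 0.692, unadjusted p = 0.0119, adjusted p = 0.296). The p21 values ran from 2.49 to 69.2 and the control values from 0 to 19.4, so the groups overlap. In 3 of the 4 libraries the counts were small (8 against 3, 12 against 0 and 7 against 5 UMIs). The fold change was 0.58 without the tdT- p21 cells of collection 2 and 3.90 without the tdT- control cells of collection 2. With the library as a block the Ibsp fold change was 1.92 (adjusted p = 0.0688), and over all cells it was 1.41 (SE 0.919, adjusted p = 0.868).

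Spp1 in chondrocytes was lower in p21 than in control cells in both tdT- libraries (49.3 against 140.9 and 26.2 against 219.0) and higher in both tdT+ libraries, where counts were small (3.22 against 0 and 10.6 against 1.25). Its fold change over all 4 libraries was -1.44 (SE 0.653, unadjusted p = 0.0479, adjusted p = 0.458). It passed with both fractions of a pool summed (-2.61, adjusted p = 0.0130) and with limma-voom (-2.34, adjusted p = 0.0413), but DESeq2 gave 0.29 (adjusted p = 0.992), and without the hypertrophic-like cells the fold change was 0.74 (adjusted p = 0.770). Within collections it was -1.24 (adjusted p = 0.375) and -2.12 (adjusted p = 0.390).

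Col10a1 had a fold change of -1.36 in p21 chondrocytes (SE 0.721, adjusted p = 0.537), and the single cell with 605 Col10a1 UMIs weighed on it. Without the cells holding most UMIs of the matrix genes it was -0.19 (adjusted p = 0.942). Within collection 1 it was 0.55 (adjusted p = 0.858), and within collection 2, which held that cell, -2.16 (adjusted p = 0.00422). Within a collection, 1 embryo pool stands against 1 pool of the other sex, and both fractions of a pool count as replicates, so these p-values, like the other p21 values within a collection, rest on no replicate pools. Without the tdT- control cells of collection 2 it was 0.57. Panx3 (0.06, SE 0.477), Mef2c (0.25, SE 0.181) and Ank (0.44, SE 0.367) did not pass in chondrocytes either (adjusted p = 0.991, 0.679 and 0.735). Over all cells, Col10a1 differed by -1.37 (SE 0.714), Spp1 by -1.02 (SE 0.412), Panx3 by 0.01 (SE 0.426), Mef2c by 0.05 (SE 0.154) and Ank by -0.06 (SE 0.181), with adjusted p-values of 0.667 or more.

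Within hypertrophic-like cells, only 4 pseudobulks held at least 5 cells, and after the term for the fraction the comparison rested on 1 tdT- p21 pseudobulk (39 cells) and 2 tdT- control pseudobulks (12 and 18 cells), with 1 residual degree of freedom. The lone p21 pseudobulk is assumed to vary like the controls, so these p-values compare pseudobulks and not conditions. Ibsp was 590 TMM-scaled CPM in it, against 5.92 and 130 in the controls (fold change 2.93, SE 0.638, edgeR's adjusted p = 0.00311, 0.28% of 6790 genes called and 0.118% called as higher). DESeq2 gave an adjusted p of 1.00 for it. In that p21 pseudobulk 3 cells held 401 of the 526 Ibsp UMIs, and the cells with an Ibsp UMI were 14 of 39 in p21 and 6 of 18 in control cells of the same library. Spp1 was 195 in p21 against 2047 and 1555 in control cells (-3.20, SE 0.952, adjusted p = 0.179), and without the cells holding most UMIs of the matrix genes it passed (-3.45, adjusted p = 0.0323), as it did with DESeq2 (-3.20, adjusted p = 9.83e-05). The cells with an Spp1 UMI were 6 of 39 in p21 and 3 of 18 in control cells of collection 2, where 1 cell held 473 of the 682 control UMIs. The tdT- p21 cells of collection 1, left out as only 4 cells, held Spp1 in 3 of 4 cells at 1136 CPM. This level is nearer to the control than to the p21 value of collection 2. In the tdT- control cells of collection 1, 10 of 12 held an Spp1 UMI. The shares of cells with an Spp1 UMI thus differed more between the collections than between p21 and control cells.

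Col10a1 was 457 in p21 against 438 and 1924 in control hypertrophic-like cells (-1.38, SE 0.821, adjusted p = 1.00), the second control value being that of the pseudobulk with the cell described above. Ank was 19.1 against 189 and 29.6 (-2.39, SE 0.746, adjusted p = 0.276). Panx3 (307 against 373 and 483) and Mef2c (845 against 621 and 846) had fold changes of -0.49 and 0.20 (adjusted p = 1.00 for both). The fractions could not be compared within hypertrophic-like cells, nor conditions or fractions within osteoprogenitor-like cells, since an arm held fewer than 2 pseudobulks of 5 cells.

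The interaction asks whether the difference between p21 and control cells itself differed between the fractions. EdgeR's test called 0% of 12372 genes in chondrocytes and 0% of 15468 genes over all cells. With an unadjusted p under 0.05 it found 294 (2.38%) and 533 genes (3.45%), DESeq2 called 1 and 3, none of them a member, and limma-voom 0 and 0. No member passed in edgeR's test as designed. With no filter on low counts, where SEs were smaller, Spp1 (adjusted p = 3.71e-19) and Ank (0.00024) passed in chondrocytes, and Spp1 (6.87e-12), Panx3 (1.06e-05) and Col10a1 (0.00229) over all cells, all by edgeR. The largest estimate among the members was that of Spp1 in chondrocytes, 5.97 on the log2 scale (SE 1.00, unadjusted p = 8.76e-05, adjusted p = 0.542), for the opposite directions in tdT- and tdT+ chondrocytes given above, where the tdT+ control values rested on 0 and 2 UMIs. Over all cells it was 1.89 (SE 0.583, adjusted p = 1.00) and, without the hypertrophic-like cells, -1.23 (adjusted p = 1.00).

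Ank in chondrocytes was higher in p21 than in control cells of the tdT+ fraction (49.7 against 14.3 and 42.7 against 15.7 CPM in collections 1 and 2) and lower in the tdT- fraction (9.32 against 33.0 and 25.3 against 27.9). Its interaction was 2.14 (SE 0.448, unadjusted p = 0.000552, adjusted p = 1.00), and over all cells 0.90 (SE 0.245, unadjusted p = 0.00431, adjusted p = 1.00). The estimates of the other members in chondrocytes were 2.17 for Col10a1 (SE 1.93), -0.40 for Ibsp (SE 2.56), 0.86 for Panx3 (SE 0.979) and 0.26 for Mef2c (SE 0.373).

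**Figure D5:**
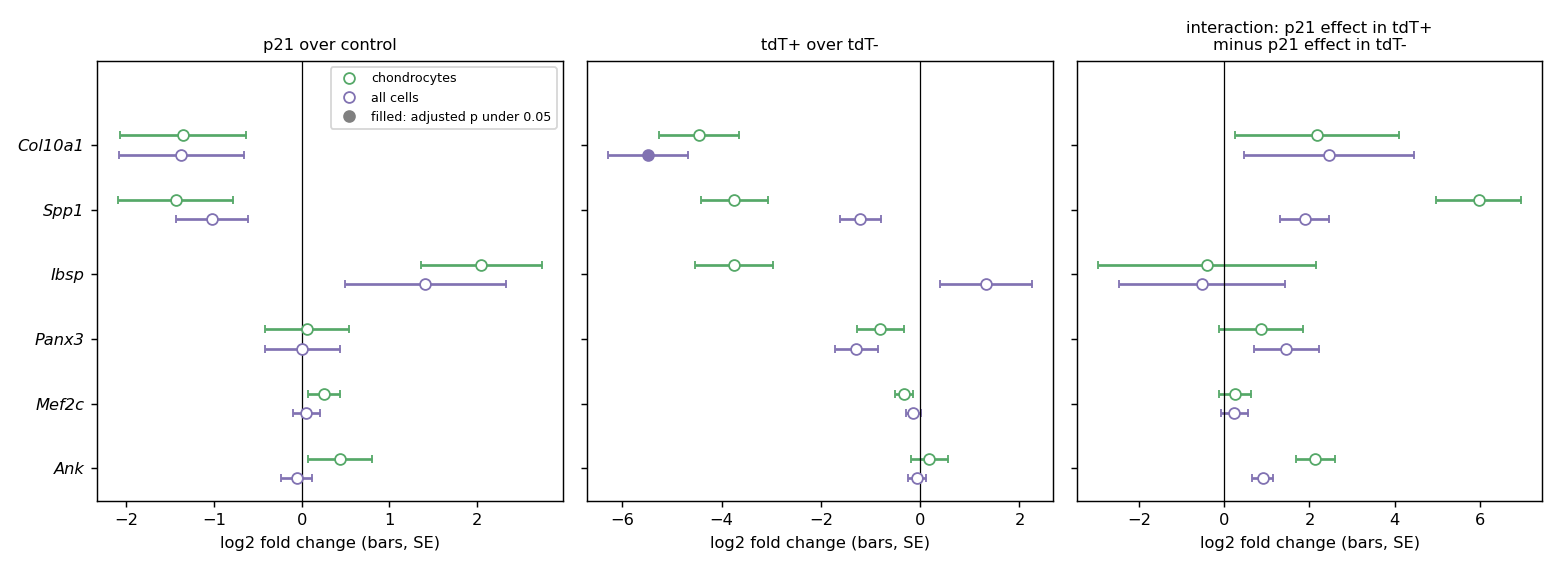
Log2 fold changes of the members by edgeR in chondrocytes (green) and all cells (purple), for p21 over control, tdT+ over tdT- and the interaction. Bars are SE, a filled point has an adjusted p under 0.05 and an open point has not. The 1 filled point is Col10a1 for tdT+ over tdT- over all cells (-5.48), and the largest of the open estimates is that of Spp1 for the interaction in chondrocytes (5.97).

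A list of 39 other genes of hypertrophy and mineralization gives the surroundings of the members. Between tdT+ and tdT- over all cells, 31 were tested and 5 passed, 2 higher and 3 lower in tdT+ (2.61% of all 14977 genes passed), with a median fold change of -0.07 over the 31 genes and -0.01 over all genes tested. The 2 higher were genes of bone formation, Alpl (alkaline phosphatase, 1.45, SE 0.157, edgeR's adjusted p = 0.00379) and the transcription factor Runx2 (1.09, SE 0.163, adjusted p = 0.0112). The 3 lower were genes of the prehypertrophic and proliferating growth plate: Ihh (the hedgehog ligand of prehypertrophic cells, -1.80, adjusted p = 0.0300), Fgfr3 (a growth factor receptor that restrains chondrocyte division, -0.75, adjusted p = 0.0341) and the forkhead factor Foxa3 (-0.97, adjusted p = 0.0209). Of the 7 genes listed under phosphate and pyrophosphate handling, none passed, 1 lay above 0 and 6 below. This group of the list also held the annexin genes Anxa2, Anxa5 and Anxa6, so it is wider than its name. Enpp1, which makes the pyrophosphate that Ank helps to export, had -0.77 (adjusted p = 0.120).

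In the other comparisons none of the list passed. In chondrocytes 30 of the 39 genes were tested, with medians of 0.02 for p21 over control (0.135% of all genes called), -0.14 for tdT+ over tdT- (0.0169%) and 0.11 for the interaction (0%), beside medians over all genes within 0.01 of 0. In hypertrophic-like cells 27 were tested, with a median of -0.14 for p21 over control, beside -0.02 over all 6790 genes. Genes not tested had too few counts, among them the bone genes Bglap, Dmp1 and Mepe and the collagenase gene Mmp13, with at most 44 UMIs each over all cells.

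Genes with patterns like those of the members were sought over the 20 clusters with at least 20 cells, by Pearson's r of log2(CPM + 10) among 6293 genes. Clusters share libraries, and both cell types described above weigh on every r. For Col10a1 the nearest were 4933436I20Rik (r = 0.92), Baiap2l2 (0.89) and Ostn (0.88). For Spp1 they were the parathyroid hormone receptor gene Pth1r (0.89), Ifitm5 (0.88) and Ostn (0.88). For Ibsp they were Ifitm5 (0.97) and 9130024F11Rik (0.95). Panx3 was most like Smpd3 (0.98), Pltp (0.96) and Pth1r (0.92), and Mef2c most like Hrc (0.85), Ifitm5 (0.84) and Smpd3 (0.84). Ank had the lowest values, with 4732471J01Rik (0.77), Uso1 (0.76) and Tmf1 (0.72).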

How the data were processed

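Hindlimb cells of 4 libraries (10x Genomics 3' v3.1 kit) were measured. The authors aligned the reads with Cell Ranger 7.2.0 to GRCm38 with added transgene features and deposited raw UMI counts per gene and barcode, which are neither normalized nor corrected for free RNA. The study's later steps (CellBender, DoubletFinder, its cell names) were not rerun.

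Barcodes with at least 1000 UMIs and 500 genes and no more than 10% mitochondrial UMIs were kept. Condition was taken from each cell's sex (at least 2 UMIs of Xist or Y-linked genes, 80% of them of 1 side), as the study multiplexed the samples. Cells with UMIs of both sides (25 to 80 per library) were left out as doublets. So were the 5% with the highest Scrublet scores among cells with at least 3000 UMIs, while cells below that were not scored. Between 177 and 2745 cells per library had no sex call. Cells were clustered without the members in scanpy 1.11.5 (Python 3.11.15, 2000 variable genes, 30 components, 15 neighbours). Leiden clusters were drawn with igraph 0.11.9 at resolution 1 and named by markers that exclude the members. A marker counted as detected in a cluster with a UMI in 10% of its cells and 1.5 times the level of other cells. Only clusters with at least 3 such markers and a minimum mean marker score were named. Names were withdrawn where another type had more markers among the leading genes, or where depth was low and no marker led. Cluster 1 (344 cells, 6 of 12 osteoprogenitor markers) and cluster 15 (80 cells, 3 of 6 proliferative chondrocyte markers) thus stayed unnamed. Both count among the other cells, and 92.5% of cluster 15 came from the tdT+ library of collection 2.

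Counts were summed per library and condition (754728 to 8100091 UMIs for chondrocytes, 2293497 to 21234698 for all cells) and tested in R 4.3.3 with edgeR 4.0.16 (filterByExpr, TMM, glmQLFit, glmQLFTest), with fraction or condition as covariate, adjusted over all genes tested (Benjamini-Hochberg, threshold 0.05). SE is the fold change over the square root of F. P-values measure the spread between these pseudobulks, of which both fractions of a pool share embryos. The fractions of a pool come from the same embryos, so the pool pairs them. Deviations of pool mates correlated at r = 0.159 and 0.122 in p21 and control chondrocytes and at 0.188 and 0.132 over all cells. Alternatives used DESeq2 1.42.0, limma-voom (limma 3.58.1, the package the study used), blocks, left-out pseudobulks and other filters. The fits were tested on simulated counts, where recovery was low for the smaller changes of the interaction and absent for p21 in hypertrophic-like cells.

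Shares have exact binomial (Clopper-Pearson) 95% intervals, and a share of 0 is given with the limit of 3 counts. Thinned shares are expected values at 5000 UMIs. Named genes are the members, other genes of the list that passed a comparison, the 3 most like genes of each member (1 of them is not reported here), and a few list genes (Enpp1, Bglap, Dmp1, Mepe, Mmp13) and markers chosen after their values were seen. The members, lists and tests were chosen with earlier results of these data known.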

Additional observations from a re-analysis of the deposited data

Results flagged for a closer look

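The values below lay far from the other 3 of their group of 4 pseudobulks, by a gap test (gap to the nearest value over the range) at the 95% level. Of 48 groups checked 7 held such a value, where chance gives about 1 in 20, and groups that share pseudobulks count more than once. The causes were not tested.

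In the tdT- control cells of collection 2, Col10a1 was 139.7 TMM-scaled CPM over all cells. This value stood apart among the control pseudobulks (0.139, 1.19 and 16.3) and among the tdT- pseudobulks (12.6, 16.3 and 30.4). In chondrocytes it was 272.7, apart from 0, 5.65 and 31.1 in the other control pseudobulks and from 25.3, 31.1 and 58.4 in the other tdT- pseudobulks. The same pseudobulk was high in Ibsp among control chondrocytes (19.4, against 0, 1.90 and 2.14) and in Panx3 among tdT- pseudobulks of all cells (64.4, against 27.9, 28.8 and 30.4). It also had the largest share of hypertrophic-like cells among chondrocytes (19.8%), and the single cell with 605 Col10a1 UMIs belonged to it. In the tdT- p21 chondrocytes of collection 2, Ibsp was 69.2, against 2.49, 5.16 and 9.32 in the other p21 pseudobulks.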

How the results depend on the processing

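Of 707 member values under an alternative, 610 kept their direction and their side of the threshold, 61 changed direction, 31 passed where they had not, 3 no longer passed and 2 levels moved. Some fits were added after seeing the data. These were the fits within a collection, without the highest cells, and of all cells without hypertrophic-like or osteoprogenitor-like cells. With no filter on low counts the SEs shrank (Ibsp for p21 over all cells from 0.919 to 0.129), and Col10a1, Spp1 and Ibsp passed for p21 in chondrocytes and over all cells, and these 3 and Panx3 for tdT in chondrocytes.

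Genes past the threshold for p21 in chondrocytes (16) numbered 121 with DESeq2, 489 with no filter on low counts, 40 with limma-voom, 33 without hypertrophic-like cells, 9 with pools summed, 36 and 56 within collections 1 and 2, and 1 to 71 leaving out 1 pseudobulk (1 and 71 without the tdT+ p21 and control cells of collection 2, 5 without the tdT+ control cells of collection 1, 7 without the tdT- p21 cells of collection 2). For p21 over all cells (3) they were 44 with DESeq2, 417 with no filter, 0 with pools summed (720 at an unadjusted p under 0.05, edgeR), 36 and 18 within collections and 1 to 4 leaving out 1. For tdT in chondrocytes (2) they were 1 with DESeq2 size factors, 8 with DESeq2, 143 with no filter, 1 with limma-voom, 1 without hypertrophic-like cells, 4 with cells lacking a sex call, 0 within collection 1 (730 unadjusted, edgeR) and 1 to 3 leaving out 1. For tdT over all cells (391) they were 729 with DESeq2, 1801 with no filter, 260 without both cell types, 26 within collection 2 and 62 to 930 leaving out 1 (76 and 62 without the tdT+ p21 and control cells of collection 1, 930 and 113 without those of collection 2, 251 without the tdT- control cells of collection 1, 146 and 168 without the tdT- p21 and control cells of collection 2). For the interaction (0 and 0) they were 1 and 3 with DESeq2, 36 and 164 with no filter, and 0 to 2 in chondrocytes leaving out 1. For p21 in hypertrophic-like cells (19) they were 4 with DESeq2. The cause was not tested.

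The replicate block was the library for p21 and the embryo pool for the fractions and the interaction. With it 9 genes passed for p21 in chondrocytes, 7 for tdT in chondrocytes, 1 and 2 for the interaction in chondrocytes and all cells, and the interaction of Ibsp over all cells was 0.055. Among the members it changed only the call of Col10a1 in chondrocytes. The p21 and control cells of a library share a number but not embryos (r = -0.08 to 0.04 across genes).

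These member values changed direction. For p21 in chondrocytes, DESeq2 gave Spp1 0.29, removing hypertrophic-like cells 0.74, pools summed Panx3 -0.17, collection 1 Col10a1 0.55 and collection 2 Panx3 -0.78 and Mef2c -0.19. For p21 over all cells, removing the highest cells gave Ibsp -0.0058 and Panx3 -0.0024. That setting removed p21 cells with 1364 and 168 Ibsp UMIs and kept a control cell with 272. Removing hypertrophic-like cells gave Col10a1 0.26 and Spp1 0.41, removing both types Col10a1 0.27 and Spp1 0.14, and pools summed Panx3 -0.24. Collection 1 gave Col10a1 0.41, Ibsp -3.09 and Ank 0.15, and collection 2 Panx3 -0.49 and Mef2c -0.26. For tdT over all cells, removing hypertrophic-like cells gave Spp1 1.18 and Ank 0.013, removing both types Spp1 0.61 and Ibsp -1.48, cells lacking a sex call Ank 0.0064 and collection 2 Ank 0.013. For the interaction over all cells, removing hypertrophic-like cells gave Spp1 -1.23, and removing both types Spp1 -1.66 and Ibsp 0.066.

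Leaving out 1 pseudobulk, p21 in chondrocytes gave Col10a1 -1.93 to 0.57 (above 0 without the tdT- control cells of collection 2) and Panx3 -0.35 to 0.49. P21 over all cells gave Col10a1 -1.99 to 0.60, Panx3 -0.40 to 0.47, Mef2c -0.11 to 0.19 and Ank -0.23 to 0.094. TdT in chondrocytes gave Ank -0.074 to 0.43, and tdT over all cells Mef2c -0.27 to 0.023 and Ank -0.20 to 0.11. The interaction gave, in chondrocytes, Col10a1 -0.061 to 8.42, Ibsp -2.91 to 4.33, Panx3 -0.037 to 4.48 and Mef2c -0.12 to 0.74, and over all cells Ibsp -5.16 to 1.87 and Mef2c -0.087 to 0.67.

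Log2 levels of hypertrophic-like over osteoprogenitor-like cells moved for Mef2c to -0.62 without the Scrublet removal. At resolution 1.5, where 221 cells were osteoprogenitor-like, the value for Panx3 moved to 3.14. Mef2c changed direction there, to 0.68, while in the main clustering it was lower in hypertrophic-like cells (832 against 1125 CPM). For p21 in hypertrophic-like cells, the block and leaving out a tdT- pseudobulk left no residual degrees of freedom.

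Limits are the 85 and 70 cells of both types, single cells that hold most UMIs of a matrix gene, 2 embryo pools per condition and the many cells with no sex call. Counts near 0 in tdT+ chondrocytes make folds of Col10a1, Spp1 and Ibsp imprecise. Free RNA was not removed.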

Other observations

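Among proliferative-like chondrocytes, Panx3 was 74.3 CPM in cluster 6 (199 cells, led by C1qtnf3, Epyc and Matn3) and 10.4 in cluster 16 (74 cells, with histone genes among its leading genes), with a UMI in 16.4% and 4.08% of cells at an equal depth of 5000 UMIs. Col10a1 was 6.0 and 1.84 and Mef2c 220 and 207 in the same clusters. Outside cartilage, Spp1 was 26.5 in cluster 1 (344 cells, led by Runx2, Alpl and Aspn among others, no type name) and Mef2c 273 in the muscle-like cluster 20 and 192 in immune-like cells. These are pooled values of clusters, with no test.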
